A study of Sus scrofa with 18 samples.

Results

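The trimethylation of histone H3 at lysine 4 (H3K4me3) was compared between the inner circular muscle of the pregnant and of the cyclic pig uterus. GD15M_CM is the circular muscle of the mesometrial side of the uterus of naturally mated Yorkshire gilts on day 15 of pregnancy, and CD15M_CM is the same layer of unmated gilts at day 15 of their cycle. These 4 samples, 2 gilts per group, are part of 18 samples in which H3K4me3, H3K27ac and an IgG control were profiled by CUT&Tag, a method in which a protein A-Tn5 fusion cuts the DNA beside antibody-bound nucleosomes. The endometrium was cut away before the muscle layers were separated, so the nuclei came from dissected tissue and not from sorted cells. The gilts of a group had been pooled before peak calling. The comparison therefore rests on 1 list of peaks per group, differences between gilts cannot be seen in it, and no test across samples was made.

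H3K4me3 sits on the nucleosomes around active and poised promoters, and long stretches of it are known from genes that define a cell type. The myometrium is smooth muscle that holds connective tissue, vessels, nerves and leukocytes, and in the pig the elongated conceptus secretes both a type I interferon and interferon gamma into the uterine lumen around the time of attachment. Interferon gamma is known to act, in part through IRF1, on genes of antigen presentation. The study compared pregnant with cyclic muscle to find the regulatory regions behind the expression differences of the implantation period.

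The deposited list of GD15M_CM holds 33599 peaks covering 47.7 Mb and that of CD15M_CM 36331 peaks covering 55.2 Mb. Their median length was 760 and 800 bp, and their median fold enrichment over IgG was 4.86 and 4.64. The strongest peak reached a fold enrichment of 43.8 in GD15M_CM and 59.1 in CD15M_CM, and since the scaling of the lists to each other is not known, each peak was ranked within its own list. A percentile of 100 is the highest fold enrichment of the list. Each of the 28210 RefSeq genes on the 18 autosomes, X and Y was given its best peak from 3 kb before to 3 kb after the gene, and a gene without a peak has percentile 0. Of these genes, 17645 had a peak in either list and 16667 in both.

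A peak was present in GD15M_CM only, here called gained, at 245 genes, which is 1.39% of the genes with a peak (95% Wilson interval 1.23 to 1.57, counting error only). It was present in CD15M_CM only, here called lost, at 733 genes, 4.15% (3.87 to 4.46). The percentile was higher in GD15M_CM by at least 20 points at 596 genes (3.38%) and lower by at least 20 points at 1587 genes (8.99%). With percentile 0 for no peak, 172 gained and 538 lost genes are among these, and the gained and lost members of the lists below count likewise. Near this limit, 157 genes were higher by 18 to under 20 points and 161 by 20 to under 22, and 330 and 271 genes were lower by the same amounts. Over the 16667 genes with a peak in both lists, the bases covered by peaks were at least 2 times longer in GD15M_CM at 142 genes (0.852%) and at least 2 times shorter at 667 genes (4.00%). The median gene had a percentile difference of −2.13 points and a length ratio of 0.903, and all lists of genes are read against these values.

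This excess of lower genes depends on the scale. When the best peaks of the genes present in both lists were ranked among themselves, 2806 genes were higher and 2782 lower by 20 points, against 596 and 1587 in the ranking among all peaks. The share of genes ranked higher in GD15M_CM was 40.7% among all peaks, 46.5% with the same number of peaks in both lists and 49.7% in the ranking of shared genes. It also depends on the level. Among the 2702 genes whose mean percentile of both lists was 50 to 70, 28.0% ranked higher in GD15M_CM with a median difference of −4.36 points. Among the 6972 genes with a mean of 85 or more it was 47.5% with a median of −0.32 points. A gene list is therefore described by how it stands apart from all genes and not by its sign alone.

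**Figure D1:**
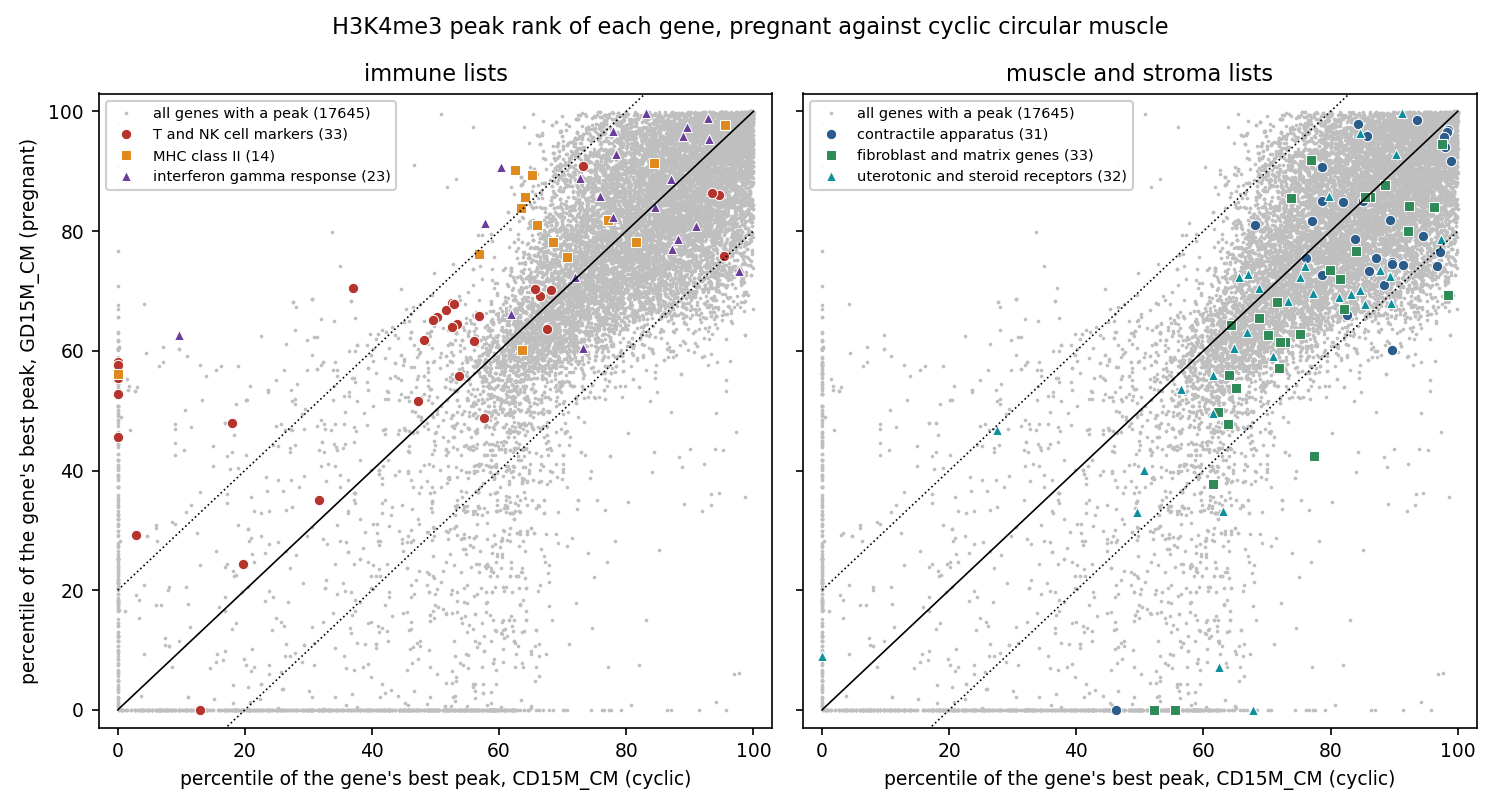
Percentile of the best H3K4me3 peak of each gene in CD15M_CM (x axis) and in GD15M_CM (y axis), with 0 for no peak. Grey points are the 17645 genes with a peak, coloured points the members of 3 immune lists (left) and of 3 muscle and stroma lists (right); the solid line marks equal percentiles and the dotted lines differences of 20 points. Of the T and NK cell markers 27 of 33 lie above the solid line, and of the fibroblast and matrix genes 29 of 33 lie below it.

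The labelled tissue was checked against marker lists. All 31 genes of the smooth muscle contractile apparatus had a peak in CD15M_CM, and all but CASQ2 had one in GD15M_CM, with median percentiles of 87.2 and 79.1. The gene of the smooth muscle actin, ACTA2, stood at 85.1 in GD15M_CM, 0.0518 points above CD15M_CM. Of 29 placed genes that belong to other organs, such as caseins, enamel proteins, taste and vision receptors and liver and pituitary hormones, 27 had no peak in either list. The exceptions were APOA2, an apolipoprotein of liver, at 73.4 in GD15M_CM and 72.8 in CD15M_CM, and TNNI3, cardiac troponin I, at 64.9 and 71.0. Genes of other cell types were marked as well. The 30 uterine epithelium markers had median percentiles of 77.6 in GD15M_CM and 74.2 in CD15M_CM, against 56.0 in the longitudinal muscle of pregnant gilts (GD15M_LM), the outer layer. In such dissected tissue, more cells of a type and more of the mark per cell cannot be told apart.

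Genes of T and NK cells formed the list with the largest number of gained peaks. Of 33 members with a peak, 5 were gained and 1 was lost, against 1.39% and 4.15% of all genes. By 20 points 8 members were higher, the 5 gained ones included, against 3.38% of all genes, and none was lower. Of the 33 members, 27 ranked higher in GD15M_CM, 81.8% (Wilson interval 65.6 to 91.4), and the median difference was 11.5 points. The members rest on 31 different best peaks of GD15M_CM, since neighbouring genes such as CD3D and CD3G share one. Their percentiles ran from 0 to 90.9 in GD15M_CM and from 0 to 95.3 in CD15M_CM. At the same level, with a mean percentile of 50 to 70, 16 of 18 members ranked higher, with a median difference of 11.3 points, against 28.0% and −4.36 points for all genes. With a mean under 30, of 30 to 50 and of 70 to 85, 7 of 8, 3 of 3 and 1 of 1 ranked higher. With a mean of 85 or more 0 of 3 did, with a median of −8.52 points. KLRD1, GZMB, KLRK1 and IL7R had no peak in either list.

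The gained genes of this list were GZMK, CD69, CD8B, CD28 and ICOS. GZMK, a granzyme of cytotoxic lymphocytes, had a percentile of 58.2 and a fold enrichment of 6.23 in GD15M_CM (best peak at chr16:34217859-34218281, Sscrofa11.1) and no peak in CD15M_CM. One of the 2 neighbouring gene models named GZMA, the main granzyme of the same cells, reached 60.3, and no peak was listed there in CD15M_CM. CD69, an early activation antigen, stood at 57.7, and CD8B, a chain of the co-receptor of cytotoxic T cells, at 55.4. The co-stimulatory receptors CD28 and ICOS stood at 52.8 and 45.5, both without a peak in the cyclic list. None of these 5 had an H3K27ac peak in either group. In the other muscle layer of the pregnant uterus, GD15M_LM, H3K4me3 percentiles of the same genes were 42.9 for GZMK, 45.4 for CD69, 45.0 for CD8B and 17.5 for CD28, and ICOS had none.

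Among members with a peak in both lists, RUNX3, CD5 and CD6 were higher by at least 20 points. RUNX3, a transcription factor of CD8 T cells, stood at 70.5 and 37.0 in GD15M_CM and CD15M_CM. The surface receptor CD5 stood at 47.9 in GD15M_CM, higher by 29.9 points, and CD6 at 29.3 against 2.92. The receptor chains CD3D and CD3E were at 68.0 against 52.6 and 51.7 against 47.2, differences below the limit. LCK, the kinase of the T cell receptor, was at 90.9 against 73.2, but its best peak lies nearer to a neighbouring gene in both lists. CCR7, the homing receptor of naive and central memory T cells, was the lost member, from a weak peak at 12.9. LEF1, CORO1A, CD27 and CD4 ranked higher in CD15M_CM, with differences of −8.52, −7.18, −19.5 and −8.84 points. The best peak of CD27 is that of the neighbouring TAPBPL, and the best peak of CORO1A also lies nearer to another gene.

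H3K4me3 also covered more bases at these genes in GD15M_CM. Over the 27 members with a peak in both lists the median length ratio of GD15M_CM to CD15M_CM was 1.69, against 0.903 for all genes, and 11 were at least 2 times longer, against 0.852% of all genes. EOMES, a T-box factor of cytotoxic and memory lymphocytes, had 4 peaks with 6541 bp in GD15M_CM and 1 of 604 bp in CD15M_CM. CD8A had 5 peaks with 8286 bp against 1 of 2147 bp. The strongest of these pregnant peaks, chr3:57998896-58002247, has a fold enrichment of 9.59 and overlaps no cyclic peak. CD3E carried 1950 against 492 bp and CD3D 6240 against 2276 bp. CD247, the zeta chain of the receptor, was longer in GD15M_CM (3158 against 1873 bp) while its percentile was lower (63.7 against 67.6).

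**Figure D2:**
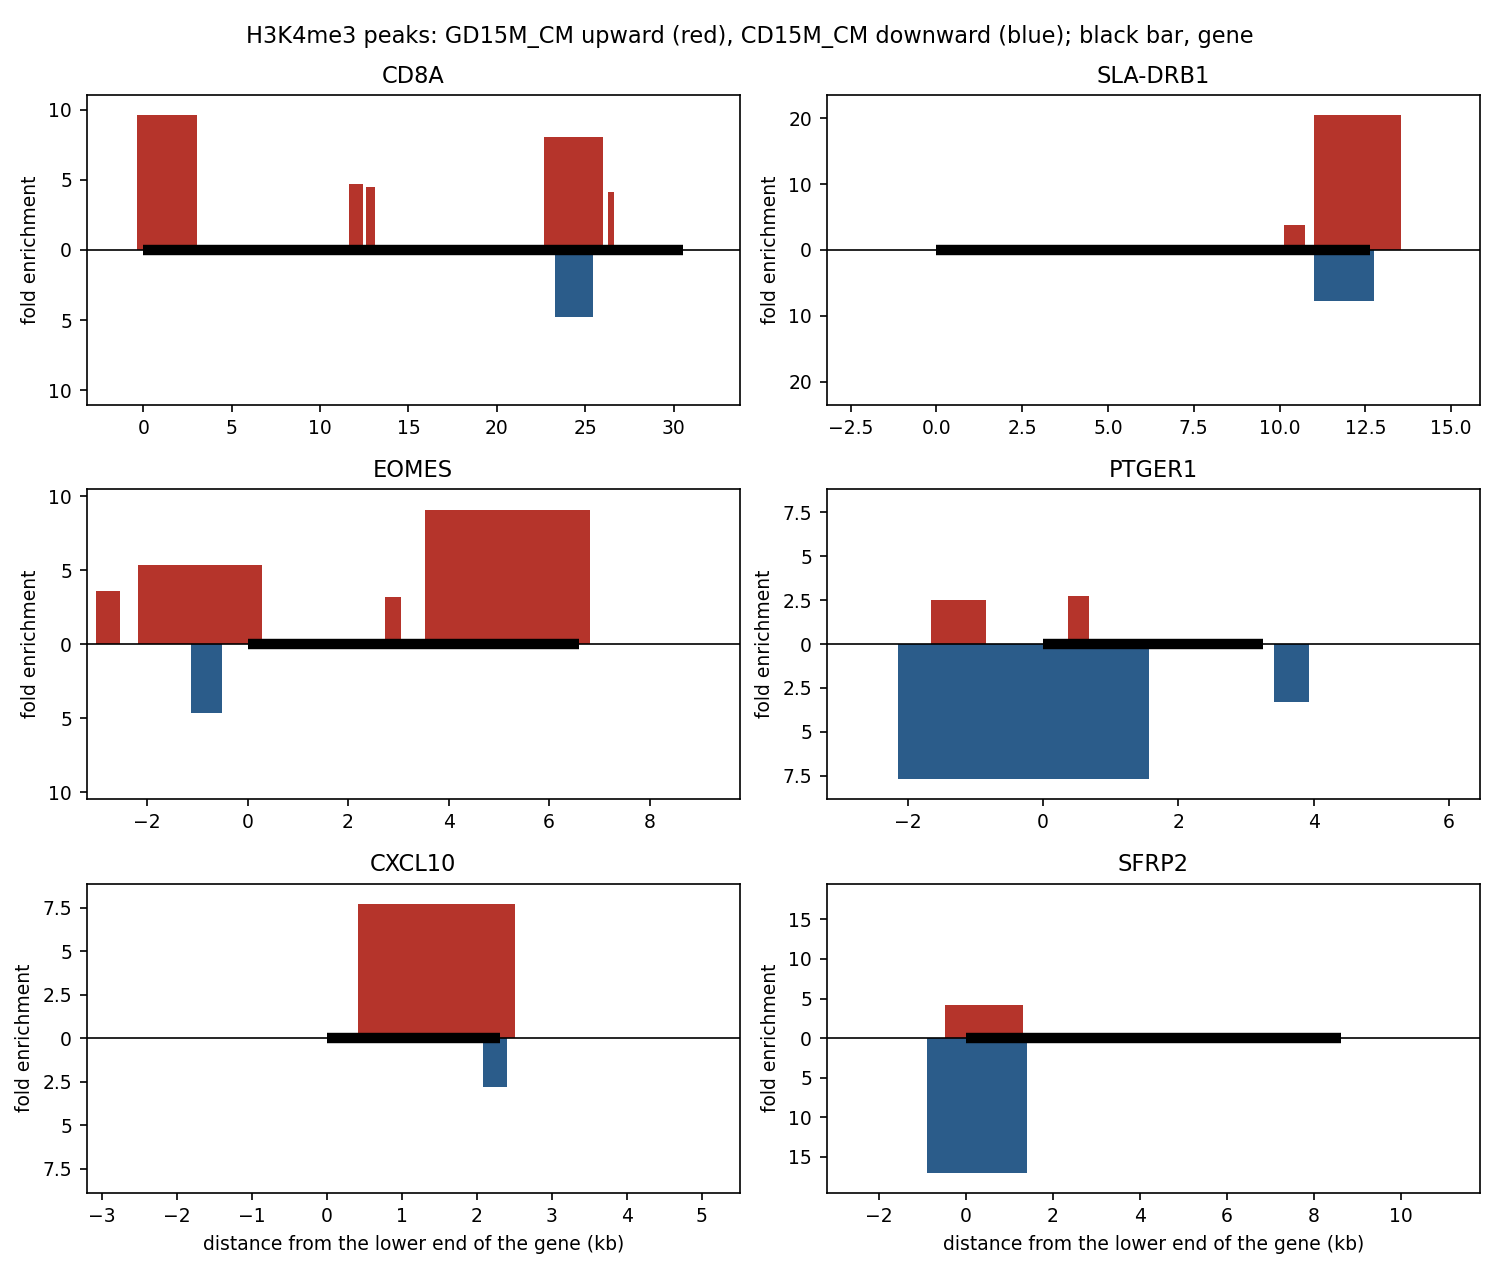
H3K4me3 peaks in the windows of 6 genes, with distance from the lower-coordinate end of the gene in kb (x axis) and fold enrichment over IgG (y axis), GD15M_CM drawn upward in red and CD15M_CM downward in blue; the black bar is the gene and each block spans 1 peak. CD8A has 5 peaks in GD15M_CM and 1 in CD15M_CM and EOMES 4 and 1, while PTGER1 and SFRP2 have their longest peak in CD15M_CM.

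Genes of MHC class II antigen presentation stood apart in rank. Of 14 members with a peak, 5 were higher by 20 points, against 3.38% of all genes, and none was lower, 12 ranked higher in GD15M_CM, and the median difference was 12.4 points with a median length ratio of 1.44. SLA-DRB1, a beta chain of the pig class II molecule, stood at 90.1 in GD15M_CM (fold enrichment 20.4, chr7:24912385-24914919) and 62.6 in CD15M_CM (fold enrichment 7.71). SLA-DMA and SLA-DMB, which load peptides on class II molecules, stood at 89.4 against 65.2 and 85.7 against 64.1. CD74, the invariant chain that escorts class II molecules, stood at 83.9 against 63.4. CTSS, the protease that trims the invariant chain, was gained with a percentile of 56.1. CIITA, the master activator of class II genes, counted in the interferon gamma list, was at 81.4 against 57.8. The RFX subunits that bind class II promoters in all cells differed less, with 97.7 against 95.5 for RFX5 and 78.2 against 81.6 for RFXANK.

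H3K27ac was set beside these values, from samples with the same tissue numbers in their names. The median H3K27ac percentile of the class II list was 88.8 in GD15M_CM and 48.4 in CD15M_CM. Taken gene by gene, the median H3K27ac difference of this list was smaller, 18.1 points, against 0 over all genes. SLA-DRB1, SLA-DRA and SLA-DOA had H3K27ac percentiles of 93.4, 88.0 and 84.5 in GD15M_CM and no H3K27ac peak in CD15M_CM. SLA-DMA was at 92.5 against 1.60. CIITA had an H3K27ac peak in both groups, at 87.4 against 73.5. Class II genes are used by macrophages, dendritic cells and B cells and can be induced in others. Of 30 B cell and macrophage markers, 18 had a peak. Among these CD86 was higher by 20 points (57.5 against 16.3), and members that were lower included CD163, lost from 60.8, and MRC1. This list had a median difference of −5.81 points, and PAX5, MS4A1, CD79B, LYZ and MARCO had no peak in either group. The part of T cells, B cells and macrophages in the class II values was not tested.

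Members of the interferon gamma response had a median difference of 6.05 points and a median length ratio of 1.40. Of 23 members with a peak, 17 ranked higher in GD15M_CM, 73.9% (Wilson interval 53.5 to 87.5), and all of these had a peak in both lists. CXCL10, the chemokine that draws CXCR3-bearing T cells, showed the largest difference, with a percentile of 62.6 and 2093 bp in GD15M_CM (fold enrichment 7.72, chr8:71694053-71696145) against 9.69 and 314 bp (fold enrichment 2.79) in CD15M_CM. Its H3K27ac percentile was 61.7 against 17.7, and its H3K4me3 percentile in GD15M_LM was 60.9. The neighbouring CXCL9 and CXCL11, which bind the same receptor, had no peak in any of the 3 H3K4me3 lists. IDO1, which breaks down tryptophan, had none either.

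The guanylate-binding protein genes, which encode interferon-induced GTPases, were higher as neighbours on chromosome 4. GBP2 stood at 90.6 against 60.3 with 4558 against 2220 bp, and GBP1 at 96.8 against 77.9 with 6798 against 3047 bp. IRF1, a transcription factor induced by interferons, differed more in length, 7730 against 4392 bp, than in rank, 95.9 against 88.9. NLRC5, the activator of class I genes, had 5867 against 3778 bp at 97.3 against 89.6. STAT2 was at 72.4 against 71.9. The receptor chains IFNGR1 and IFNGR2 ranked lower, at 80.8 against 91.0 and 77.1 against 87.3. SAMHD1, a dNTP hydrolase that limits viruses, was the member lower by 20 points, 73.4 against 97.8, although its peaks covered 3094 against 2612 bp.

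The type I interferon list did not stand apart as a whole. None of its 29 members was gained, lost or past 20 points, 11 ranked higher in GD15M_CM (37.9%, and 55.2% in the ranking of shared genes), and the median difference was −0.646 points. IFIT2, EIF2AK2 and IFIT1, which block viral RNA translation, had the largest differences, at 91.5 against 74.4, 94.8 against 78.8 and 88.1 against 72.1. MX1, the antiviral GTPase, was at 89.4 against 91.6, and OAS2, an oligoadenylate synthetase, at 86.2 against 89.7. On the other side the largest difference was at SP110, 76.5 against 89.0, whose best peak lies nearer to a neighbour.

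Genes of the class I pathway showed small differences, with none past 20 points among 19 members and a median of 1.71 points. The largest difference was at TAPBPL, a peptide editor of class I molecules, which ranked lower in GD15M_CM at 75.8 against 95.3. SLA-8, a class I gene, was at 97.7 against 88.4 and SLA-6 at 80.9 against 73.8. The neighbouring TAP1, the peptide transporter, and PSMB9, a subunit of the immunoproteasome, share their best peak of GD15M_CM, and stood at 88.2 against 83.8 and 88.2 against 74.0. PSMB8 was at 85.5 against 83.8 and PSMB10 at 73.8 against 67.5. Lengths differed in one direction at some of them, with 12232 against 8591 bp at TAP1 and 24330 against 16726 bp at SLA-1, whose percentile was lower in GD15M_CM. Reads of the similar class I genes can be placed on more than one copy, and B2M, the class I light chain, is carried by 2 gene models and was left out of the list.

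Complement and chemokine genes differed in both directions. Of 30 members with a peak, 3 were gained, against 1.39% of all genes. By 20 points 4 were higher and 2 lower, against 3.38% and 8.99% of all genes, and the median difference was −0.888 points. CXCR3, the receptor of CXCL10, was gained at 35.1, CCL4, a chemokine of activated lymphocytes and macrophages, at 46.4, and CCL3L1 at only 0.921. CCR2, the receptor of monocytes and some T cells, was at 56.7 against 15.4. C3, the central complement component, was at 51.9 against 27.9 with 2785 against 1662 bp, and its H3K27ac percentile was 4.82 against 27.4. On the other side, CCL21, the lymph-vessel chemokine bound by CCR7, was at 3.15 against 56.2, and ACKR1, an endothelial chemokine receptor, at 11.0 against 40.6.

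**Figure D3:**
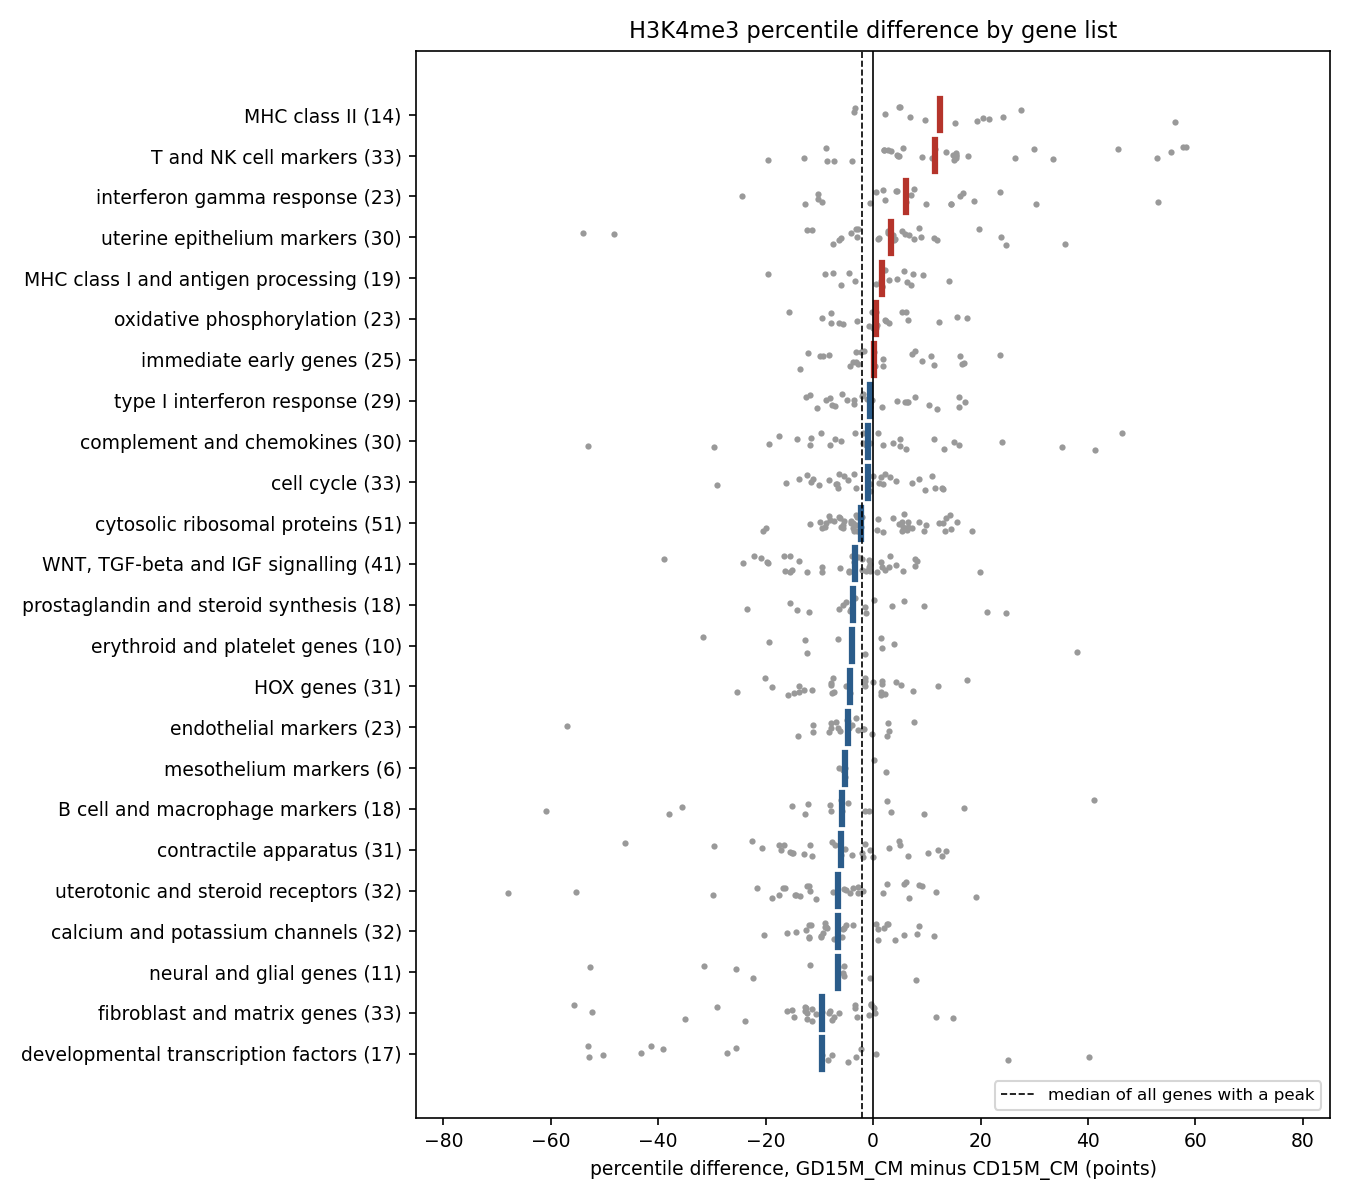
Percentile difference of H3K4me3, GD15M_CM minus CD15M_CM, in points (x axis) for the members of 24 gene lists, 1 per line with its number of members with a peak. Each point is a gene with random vertical offset, thick bars are list medians (red above 0, blue below) and the dashed line is the median of all genes; the medians run from 12.4 for MHC class II to −9.54 for developmental transcription factors.

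Over all genes, those that ranked highest for gain or difference included genes of lymphocytes, some of them members of the lists above. Among the 8 gained protein-coding genes of highest percentile, picked by rank and credited with their own nearest peak, were GZMA, GZMK, which is also a member of the T and NK cell list, and GIMAP2, a GTPase of lymphocytes at 59.0. The others were KCTD14 at 87.6 (chr9:12450736-12452394), TBC1D14 at 70.8, the beta-defensin gene DEFB123 at 63.1, the glucuronosyltransferase gene UGT1A6 at 61.8 and RANBP3L at 58.2. KCTD14 also had an H3K27ac peak at 68.7 in GD15M_CM and none in CD15M_CM. TBC1D14 had H3K27ac in both, at 98.1 and 92.9, and UGT1A6 in neither.

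By the same rule, the 8 largest percentile differences in favour of GD15M_CM with a peak in both lists came from weak cyclic peaks. Besides CXCL10 they included genes of leukocytes. CD80, a ligand of CD28 on antigen-presenting cells, stood at 55.3 against 1.49, and CD244, a receptor of NK and cytotoxic T cells, at 53.4 against 1.66. TESPA1, a T cell receptor signalling protein, was at 54.0 against 3.02, and IL12RB1, a chain of the interleukin 12 receptor, at 57.4 against 6.47. GPR65, a proton-sensing receptor of lymphocytes, was at 60.3 against 9.69. The retinol dehydrogenase gene DHRS9 was at 58.1 against 7.08 and KLHDC7A at 49.0 against 0.539. By length, with a percentile of at least 50 in both lists, the largest ratios were at EOMES (10.8), ANKS4B, an epithelial brush border protein (5.29), GPR171, a receptor of T cells (4.60), CD8A (3.86) and RBP4, the retinol carrier (3.18).

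**Figure D4:**
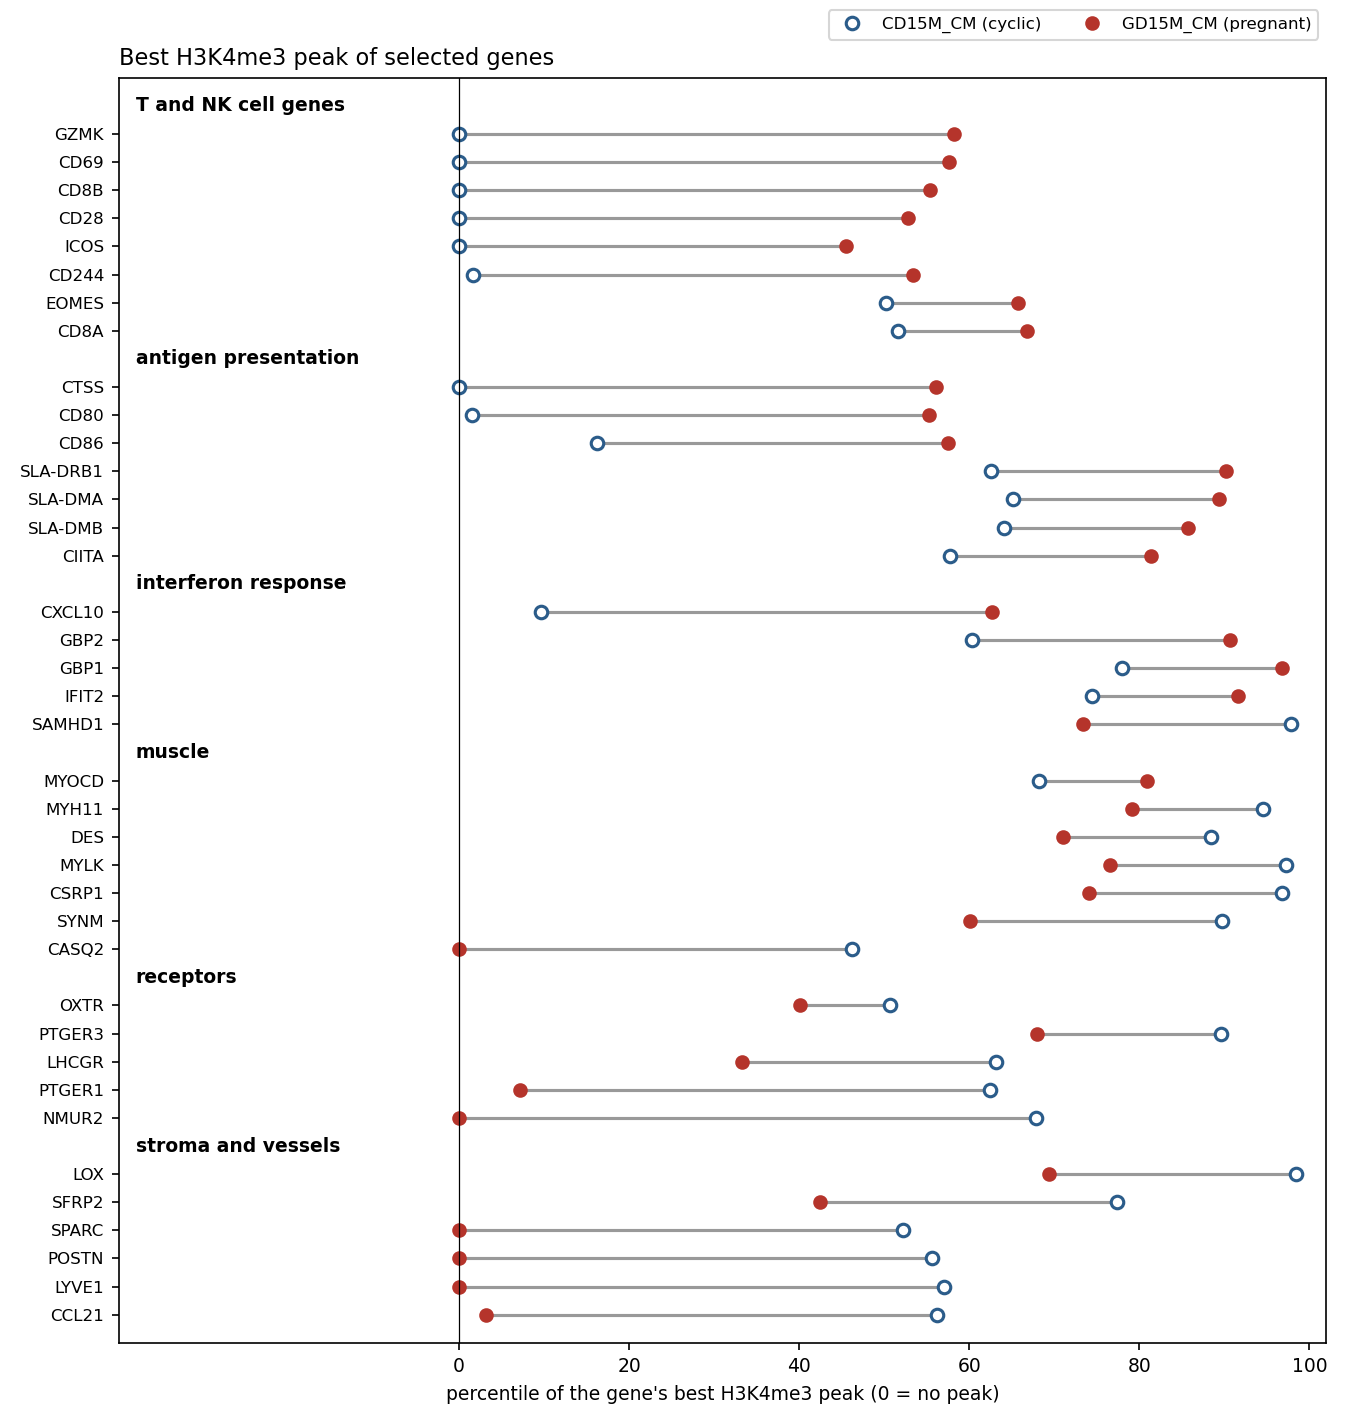
Percentile of the best H3K4me3 peak (x axis; 0 is no peak) of selected genes, open blue circles for CD15M_CM and filled red circles for GD15M_CM, 1 pooled list each. The T and NK cell and class II genes shown lie to the right in GD15M_CM, and most muscle, receptor and stroma genes shown lie to the right in CD15M_CM, with MYOCD on the other side. The genes were picked after their values were seen. Of the whole lists, 6 of 33 T and NK cell markers and 2 of 14 class II genes with a peak ranked higher in CD15M_CM.

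More contractile genes ranked lower than higher in pregnant muscle. In the ranking by fold enrichment the interval of this share holds that of all genes. Of 31 members none was higher and 4 were lower by 20 points, against 8.99% of all genes, one of them, CASQ2, by loss of its peak. In GD15M_CM 9 ranked higher (29.0%, Wilson interval 16.1 to 46.6), against 40.7% of all genes. The median difference was −5.96 points and the median length ratio 0.823, against −2.13 and 0.903 for all genes. At a mean percentile of 70 to 85, 5 of 16 members ranked higher with a median of −8.81 points, against 42.8% and −2.23 points for all genes. At 85 or more 4 of 13 members ranked higher with a median of −2.14 points, against 47.5% and −0.32 points for all genes. In the ranking of shared genes 33.3% of the list ranked higher (Wilson interval 19.2 to 51.2), against 49.7% of all genes. Ranked by −log10 p it was 16.1% (7.09 to 32.6), an interval that does not hold the 37.9% of all genes.

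SYNM, the intermediate filament protein synemin, stood at 60.1 in GD15M_CM (fold enrichment 6.78) and 89.7 in CD15M_CM (fold enrichment 24.6), and at 98.6 in GD15M_LM. CSRP1, an SRF cofactor, was at 74.1 against 96.7, and CASQ2, a calcium-binding protein of the sarcoplasmic reticulum, had a peak at 46.2 in the cyclic list only. MYLK, the kinase that starts contraction by phosphorylating the myosin light chain, was at 76.5 against 97.2 and 98.5 in GD15M_LM. MYH11, the smooth muscle myosin heavy chain, was at 79.1 against 94.5, and DES, desmin, at 71.0 against 88.4. TAGLN, CNN1 and MYL9 differed by −12.8, −14.9 and −15.1 points. Peaks over some of these genes were also shorter, with 9888 against 22706 bp at PPP1R12B, a subunit of myosin phosphatase, and 12441 against 20568 bp at LMOD1, leiomodin. The opposite direction was seen at LPP (97.9 against 84.3), TLN1, talin (90.7 against 78.7), and MYOCD, the coactivator of smooth muscle genes (80.9 against 68.2). These 3 differences lie below 20 points, and MYOCD and TLN1 had shorter peaks in GD15M_CM.

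Ion channels and gap junctions had a median difference near that of the contractile list, −6.53 points, against −2.13 for all genes. All 32 calcium and potassium channel and connexin genes had a peak in both groups, and 1 was lower by 20 points, against 8.99% of all genes. In GD15M_CM 11 ranked higher (34.4%, Wilson interval 20.4 to 51.7), an interval that holds the 40.7% of all genes. Ranked by −log10 p the share was 15.6% (6.86 to 31.8), against 37.9% of all genes. KCNE4, a potassium channel subunit, was at 65.8 against 86.2, GJC1, connexin 45, at 82.9 against 99.0, and ITPR1, the calcium release channel opened by inositol trisphosphate, at 82.7 against 97.1. GJA1, connexin 43, which couples myometrial cells at labour, was at 89.7 against 95.5. The L-type calcium channel gene CACNA1C was at 75.5 against 71.5 and the large-conductance potassium channel gene KCNMA1 at 73.5 against 71.0, both close to equal.

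Among receptors of uterotonic agents and steroids, the largest differences were at receptors that ranked higher in cyclic muscle. Of 32 members with a peak, none was higher and 4 were lower by 20 points, against 8.99% of all genes, and the median was −6.48 points. NMUR2, a receptor of neuromedin U, was lost from a percentile of 67.9 with 3577 bp (chr16:70659512-70663088), and had no peak in GD15M_LM. PTGER1, a prostaglandin E2 receptor that raises calcium, was at 7.23 with 1115 bp against 62.5 with 4228 bp. PTGER3, another receptor of the same ligand, was at 68.0 against 89.6, and LHCGR, the luteinizing hormone receptor, at 33.3 against 63.1. PTGFR, the receptor of prostaglandin F2 alpha, was at 70.1 against 84.7, and OXTR, the oxytocin receptor, at 40.1 with 243 bp against 50.7 with 1942 bp. OXTR had no H3K27ac peak in GD15M_CM and one at 73.2 in CD15M_CM. On the other side, ADRA1A, an adrenergic receptor, was at 46.7 against 27.5, and NMUR1, the second receptor of neuromedin U, was gained from a weak peak at 9.03. The relaxant receptors PTGER2 and PTGER4 were nearly level, at 72.4 against 65.6 and 70.6 against 68.7. Among steroid receptors, ESR1, the estrogen receptor, was at 96.4 against 84.7, and PGR, the progesterone receptor, at 92.9 against 90.3. In the ranking of shared genes, 46.7% of the list ranked higher, close to all genes. Ranked by −log10 p it was 15.6% (Wilson interval 6.86 to 31.8), against 37.9% of all genes.

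Enzymes of prostaglandin and steroid synthesis showed no common direction. PTGES2, a prostaglandin E synthase, was at 93.9 against 72.8, and PTGS1, the constitutive cyclooxygenase, at 38.2 against 61.6. PTGS2, the inducible one, was at 59.8 against 63.9, from a peak nearer to another gene. HSD3B1, which makes progesterone, was gained from a weak peak at 24.7, and CYP17A1, a step towards androgens, was lost from one at 11.8. STAR, CYP11A1 and CYP19A1 had no peak in either list. The list as a whole had a median of −3.67 points over 18 members.

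Fibroblast and extracellular matrix genes mostly ranked lower in pregnant muscle. Of 33 members, 4 ranked higher in GD15M_CM (12.1%, Wilson interval 4.82 to 27.3), 5 were lower by 20 points, against 8.99% of all genes, and none higher, and the median difference was −9.48 points. At a mean percentile of 50 to 70 none of 14 members ranked higher, against 28.0% of all genes at that level. At 70 to 85, 2 of 7 ranked higher with a median of −7.26 points, against −2.23 for all genes. At 85 or more, 2 of 9 ranked higher with a median of −0.83 points, against −0.32 for all genes. In the ranking of shared genes 25.8% of the list ranked higher. POSTN, periostin, and SPARC, osteonectin, were lost from 55.6 and 52.2, and SPARC had a peak at 88.3 in GD15M_LM. SFRP2, a secreted WNT inhibitor of stromal cells, was at 42.4 (fold enrichment 4.22) against 77.4, with H3K27ac at 4.82 against 83.0. LOX, the enzyme that crosslinks collagen, was at 69.4 against 98.4, and TNC, tenascin C, at 37.8 against 61.6. Among the fibrillar collagens, COL1A1 was at 87.8 against 88.6 with 8410 against 20548 bp, and COL3A1 at 76.8 against 84.0 with 4093 against 5903 bp. COL1A2 and MMP2 ranked higher, at 91.9 against 77.0 and 85.5 against 73.8.

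Endothelial markers had a median difference of −4.72 points, with 4 of 23 ranked higher and LYVE1, a receptor of lymphatic endothelium and some macrophages, lost from 57.1. PLVAP, a protein of vessel fenestrae, was at 53.2 against 67.1 and NOS3, the endothelial nitric oxide synthase, at 57.7 against 68.9. The broad markers PECAM1 and KDR were at 60.0 against 67.9 and 59.0 against 67.3. In the ranking of shared genes 50% of this list ranked higher, as for all genes. Of 11 neural and glial genes with a peak, 4 were lost, against 4.15% of all genes, and 1 ranked higher. Among the lost genes were SOX10, the Schwann cell factor, from 25.6, and GFAP and STMN2, from 22.4 and 0.615, while SNAP25, a synaptic protein, was at 27.4 against 58.9. These lost peaks were weak, and of all genes with a mean percentile under 30, 49.9% were lower by 20 points. Of 6 mesothelium markers with a peak none was past 20 points, with PKHD1L1 at 56.3 against 62.6, UPK3B at 54.2 against 59.9 and WT1 at 91.5 against 96.8. Of 10 erythroid and platelet genes, AHSP was higher and HBM lower, both from peaks nearer to other genes, SLC4A1, the red cell anion exchanger, was at 30.4 against 49.7, and EPB42 was lost from a weak peak at 6.47.

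Epithelial genes ranked slightly higher in GD15M_CM. Of 30 markers, 19 ranked higher, 3 were higher and 2 lower by 20 points, against 3.38% and 8.99% of all genes, and the median difference was 3.26 points. FOXA2, the factor of uterine glands, was at 95.6 against 71.9 and 60.3 in GD15M_LM, with H3K27ac at 90.6 against 52.8. ELF3, an epithelial ETS factor, was at 47.3 against 11.6, and MARVELD2, tricellulin, at 92.0 against 67.2. The common epithelial markers EPCAM and CDH1 were at 75.8 against 71.9 and 81.6 against 75.7. Both lost members encode secreted proteins. SPP1, osteopontin, was lost from 48.2, and SAL1, a lipocalin that the pig endometrium secretes, from 54.0 with 2527 bp. The part of epithelial or lymphoid cells in the lists above was not tested.

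Signalling and patterning genes had counts near the share of all genes, of which 8.99% were lower by 20 points. Of 41 WNT, TGF-beta and IGF genes with a peak, 4 were lower and none higher, with a median of −3.42 points. WNT11, a WNT ligand, was at 33.5 against 72.3, IGFBP5, a binding protein of insulin-like growth factors, at 63.3 against 87.4, DKK3 at 66.1 against 88.2 and BMP2 at 62.9 against 83.7. IGF1 was at 81.5 against 95.2, TGFB3 at 77.3 against 97.0, and IGFBP2, on the other side, at 69.4 against 49.5. Among 31 HOX genes, which give the tract its positional identity, 2 were lower, HOXC4 (48.0 against 73.3) and HOXD12 (66.4 against 86.4). HOXD11, beside HOXD12, was at 67.7 against 86.4. The best peak of HOXD12 lies nearer to another gene in both lists and reaches its window with 296 and 346 bp, and in CD15M_CM it is also the best peak of HOXD11, so these genes are not separate measurements there. HOXA10 and HOXA11, which the uterus needs for implantation, share their best peak and were at 97.6 against 99.1.

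Of a list of developmental transcription factors most were unmarked, with no peak in either list at 41 of 58 placed genes. Of the 17 with a peak, 6 were lost and 2 gained, against 4.15% and 1.39% of all genes. By 20 points 8 were lower, the 6 lost ones included, and 2 higher, against 8.99% and 3.38% of all genes. Weak peaks were often lower over all genes too, with 49.9% lower by 20 points among the 1124 genes of a mean percentile under 30 and 51.6% among the 748 genes of 30 to 50, while these factors had a median percentile of 35.7 in pregnant and 54.5 in cyclic muscle. SIX2 and SOX21 were lost from 53.1 and 50.3, and DLX2, LHX4, OLIG1 and SOX10 from weaker peaks at 43.2, 41.3, 39.2 and 25.6. POU4F1 and SIX6 were gained at 40.2 and 25.2. FOXA1, an epithelial pioneer factor, was at 6.71 against 59.5, and TBX1 at 35.7 with 2764 bp against 62.8 with 7114 bp. HAND2, which mediates progesterone action in uterine stroma, was at 70.3 against 78.1.

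Genes used by all cells lay near the overall median. The 51 cytosolic ribosomal protein genes had a median difference of −2.18 points, the 23 oxidative phosphorylation genes 0.490 and the 33 cell cycle genes −0.942. None of the 3 lists had a gained or lost gene. Of the ribosomal genes RPL8 was lower by 20 points, at 69.3 against 89.8, RPL11 was at 71.0 against 90.9 and RPL30 on the other side at 93.0 against 74.7. Of the cell cycle genes E2F8, a repressor of E2F targets, was lower by 20 points, at 32.9 against 62.0, with CENPE at 71.9 against 88.2 and MCM2 at 61.5 against 75.4. COX7A2 and NDUFA2 were at 89.9 against 72.5 and 95.9 against 80.3, and NDUFA10 at 80.0 against 95.7. Of the 25 immediate early genes, which respond within minutes to stimuli and to tissue handling, EGR1 was higher by 20 points, at 89.5 against 66.0 with H3K27ac at 98.1 against 35.8. EGR2, credited with a peak nearer to a neighbour, was at 96.2 against 79.3, KLF6 and NR4A2 were at 99.8 against 83.2 and 99.3 against 83.1, and FOS at 92.2 against 83.1. The list median was 0.121 points, and ATF3, MYC and DUSP1 ranked lower, with differences of −13.6, −9.32 and −8.23 points.

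Over all genes whose best peak lies nearest to them, the 8 lost protein-coding genes of highest cyclic percentile, unnamed models left out, were LPIN3 at 70.1, where only 64 bp of the peak reach the window, NMUR2, the mucin gene MUC6 at 66.9 with 7360 bp, GALNTL6 at 66.3, the diacylglycerol kinase gene DGKB at 64.6, the neuroendocrine chaperone gene SCG5 at 64.6, DIRAS2 at 63.9 and ATP6V0D2, a proton pump subunit, at 63.3. Lost genes whose best peak lies nearer to another gene reached higher, such as NWD2 at 91.4 and TMEM130 at 87.0. GALNTL6 had an H3K27ac percentile of 99.9 in GD15M_CM against 40.4, which is the opposite order. In GD15M_LM, 2 of the 8, GALNTL6 and DIRAS2, had a peak, at 43.6 and 56.6.

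Among protein-coding genes with a peak nearest to them in both lists, the 8 largest differences were larger in favour of CD15M_CM than of GD15M_CM. Without that limit the largest was at WAP, 1.34 against 94.2, whose best peak lies nearer to another gene in both lists. TAC4, a tachykinin gene, was at 7.58 (fold enrichment 2.77) against 82.0 (fold enrichment 19.6, chr12:26027599-26029925) and at 87.2 in GD15M_LM. DISP3 was at 7.23 with 417 bp against 77.1 with 5399 bp, and the sialyltransferase gene ST8SIA6 at 15.1 against 83.0, both without a peak in GD15M_LM. The adhesion receptor gene ADGRG2 was at 0.348 against 65.1, SEZ6L at 13.6 against 74.6, MYO16 at 4.77 against 65.6, the phospholipase gene PLA2G4E at 5.69 against 66.3 and FRRS1L at 9.40 against 67.3. By length the largest reductions at a percentile of at least 50 in both lists were at MMRN1 (232 against 2033 bp), CDH15, PRSS22, AQP5, a water channel, and PPFIA4. PRSS22, a serine protease gene, also ranked lower, 78.3 against 99.6.

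**Figure D5:**
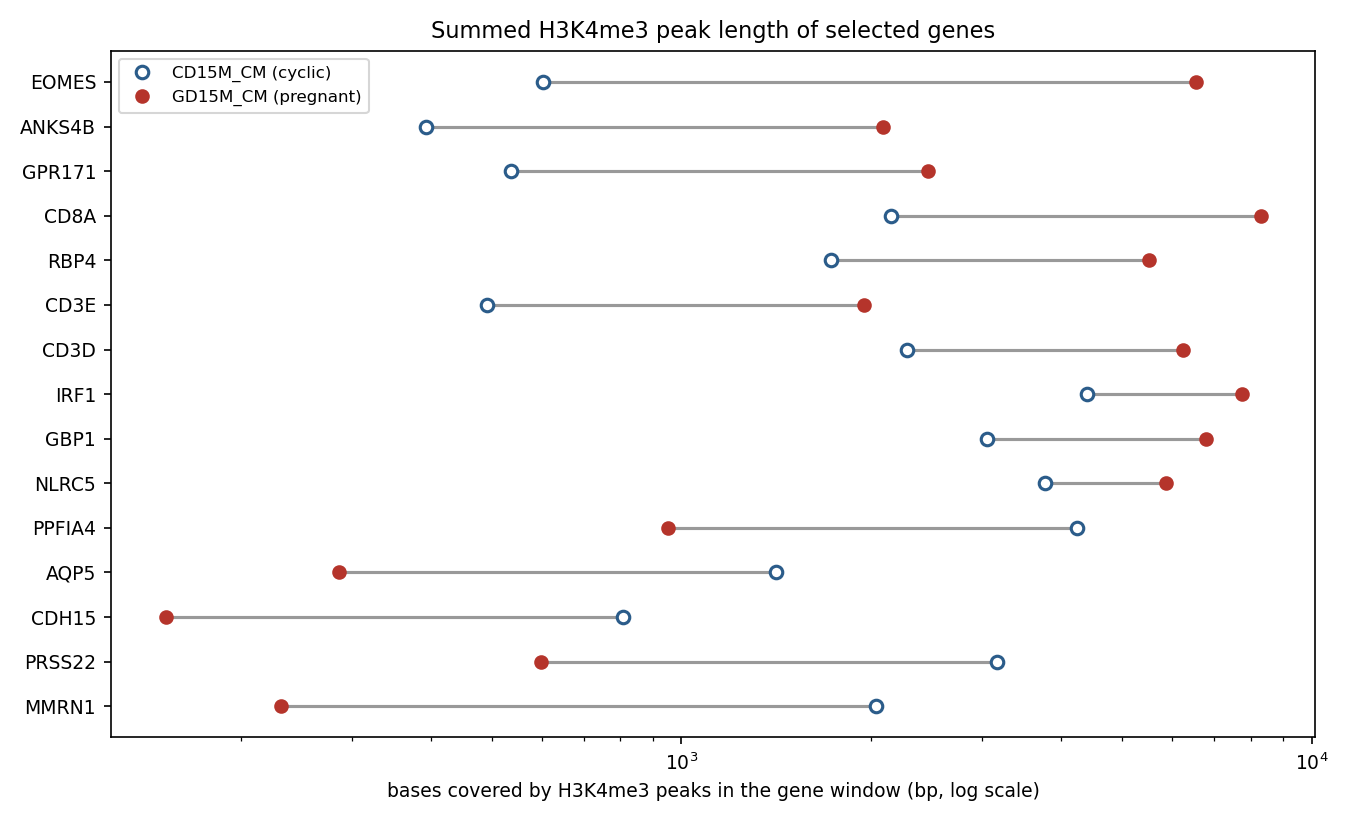
Bases covered by H3K4me3 peaks in the gene window (x axis, bp, log scale) of selected genes, open blue circles for CD15M_CM and filled red circles for GD15M_CM, 1 pooled list each. EOMES has 6541 bp in GD15M_CM and 604 bp in CD15M_CM, and MMRN1 232 and 2033 bp.

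Gained and lost peaks were weaker than those both groups had. The median best percentile was 31.9 at gained and 36.2 at lost genes, against 81.2 and 82.7 at genes with a peak in both. 63 gained and 201 lost genes had a percentile of 50 or more. The best peak lay nearest to the gene itself at 125 gained and 399 lost genes, and otherwise nearest to a neighbour. Protein-coding genes made up 138 of the gained and 472 of the lost genes, and long noncoding RNA genes 79 and 191. Of the genes higher by 20 points, 46 were also at least 2 times longer and 10 at least 2 times shorter. Of those lower by 20 points, 244 were shorter and 4 longer.

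H3K27ac and the other muscle layer give readouts that the classes did not use, although their samples carry the same numbers and may come from the same gilts, and they are given as values only. At the 596 genes higher by 20 points the median H3K27ac percentile was 86.5 in GD15M_CM and 54.1 in CD15M_CM. At the 1587 genes lower by 20 points it was 43.2 and 70.4, and over all genes 86.7 and 85.6. Taken gene by gene, the median H3K27ac difference was smaller than these gaps. It was 8.03 points at the higher genes, −8.45 at the lower genes and 0 over all genes. At gained genes it was 0 and at lost genes −3.58. A gained gene had an H3K27ac peak of GD15M_CM only in 37 cases and of CD15M_CM only in 8. For lost genes these numbers were 20 and 151, and for all 17645 genes with an H3K4me3 peak 289 and 586. In GD15M_LM, 105 of the 245 gained and 429 of the 733 lost genes had an H3K4me3 peak, against 16901 of the 17645 genes.

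Along the genome the differences were spread over all autosomes and X. On Y 8 genes had a peak in either list, of which 3 were gained, 3 were higher and 0 lower by 20 points. The animals were gilts, and where the reads placed on Y came from was not tested. These genes are counted in the totals above. The share of genes lower by 20 points ran from 6.86% on chromosome 3 to 14.5% on chromosome 11 among the autosomes and X, and the share of higher genes from 2.14% on chromosome 14 to 6.09% on chromosome 11. Runs of at least 4 genes past 10 points in one direction, taken along protein-coding genes with a peak, numbered 19 higher and 95 lower. At that limit 2196 of all 17645 genes were higher and 4215 lower, so lower runs had more genes to draw on. Whether the genes lie closer together than these counts give was not tested. Genes between were passed over, and a run can be wide, such as chr16:8090253-18355540. One higher run held GBP2 and GBP1. One of the longest lower runs, 9 genes on chromosome 8, held SFRP2 and TLR2, a receptor of bacterial lipoproteins, with a median difference of −24.9 points. Neighbouring genes can share a peak, so the genes of a run are not separate measurements.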

How the data were processed

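H3K4me3 was measured by CUT&Tag in the circular muscle of 2 pregnant and 2 cyclic gilts, with IgG as control. The authors used BWA 0.7.17-r1188 to align reads to Sus scrofa 11.1, took out duplicates and poorly mapped reads with Picard 2.8.3 and SAMtools 1.9, joined the gilts of a group and called peaks in MACS2 2.2.6. The deposited lists give, per peak, its position, its length in bp, its fold enrichment over IgG (a ratio) and −log10 of its p-value. The heading of the −log10 p column is damaged, and it was recognised by its place and values. Read depth is not in these lists, and the read numbers that the study gives were not used here, so no interval covers depth, and the number and length of peaks can move with it.

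Peaks were ranked within their list by fold enrichment, with ties at their mean rank, and overlapped with gene windows in Python 3.11.15. The packages were SciPy 1.17.1, NumPy 2.4.6, pandas 2.3.3 and, for the plots, Matplotlib 3.10.9. The code was tested on simulated losses and against a direct count. Genes came from the RefSeq annotation of Sscrofa11.1. Of the symbols of the gene lists 749 were found by symbol, 2 by a synonym and 42 were not placed, and 4 symbols met more than 1 gene model and were left out. Bases in peaks were counted inside the window. No gene was assigned by strand, which the table used here lacks. Peaks on unplaced scaffolds, 643 in GD15M_CM and 719 in CD15M_CM, were counted and ranked with the others but given to no gene.

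Without separate lists per gilt there was no test and no p-value. Shares have 95% Wilson intervals. Genes were named by a rule: the 8 gained, lost, higher and lower protein-coding genes of largest value whose direction held with ranking by −log10 p and whose best peak lies nearest to them, 5 by length each way, the 3 largest differences and all gained or lost members of each list, and genes that the study names for this muscle. The last were chosen by the study on these samples, as was part of the immune lists, and are not independent evidence. Other named genes are list members chosen after their values were seen. Some genes that the rule names are not reported here. The members and lists were chosen with earlier results of these data known. Alternatives changed the measure ranked, the peaks used, their joining, the gene window, the genes, the overlap and the thresholds.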

Additional observations from a re-analysis of the deposited data

How the results depend on the processing

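No paired analysis was possible because the gilts of each group were pooled before peaks were called, so leaving out a gilt or adding a replicate block was not possible either. A window of 3 kb around the annotated start was not run, since it needs the strand. Of 649 list and named genes with a value under an alternative, 110 were gained, lost or past 20 points, and none of these changed sign where it had a value. This was partly fixed in advance. A gained or lost gene could only keep its direction or drop out, and genes picked by largest value had to hold their direction by −log10 p. Of the genes not gained, lost or past 20 points, 149 changed sign under at least 1 alternative, with differences of up to 19.5 points in the ranking used. Among them were ADRA1A by −log10 p, OXTR among shared genes, MMP2 within 1 kb, ESR1 and ATF3 at gene ends, and CD3G, CD27 and EGR2 by nearest gene. Under the alternatives 25 counts moved by over 1.5 times and 39 did not, and 15 shares of gene lists moved past their interval and 219 did not. The cause was not tested unless the alternative itself shortens or lengthens the lists.

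Against 596 higher and 1587 lower genes, ranking by −log10 p gave 275 and 990, peaks with −log10 p of at least 10 and fold of at least 5 gave 2238 and 3032, joining peaks under 1 kb apart 1108 and 2560, and ranking shared genes 2806 and 2782. Limits of 10 and 30 points gave 2196 and 203 higher and 4215 and 778 lower genes. Against 142 longer and 667 shorter genes, the stricter peaks gave 72 and 432, a ratio of 1.5 gave 357 and 2055 and a ratio of 3 gave 49 and 224. Against 245 gained and 733 lost genes, protein-coding genes alone were 138 and 472, and peaks at percentile 50 or more left 63 and 201. Giving each peak only to the nearest protein-coding gene, an alternative chosen after seeing the data, gave 470 gained, 906 higher and 344 longer genes.

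The share of all genes ranked higher in GD15M_CM, 40.7%, was 37.9% by −log10 p, 44.1% with the stricter peaks, 46.5% with equal numbers of peaks, 38.5% with joined peaks and 49.7% among shared genes. Among shared genes it was 46.7% for receptors, 52.9% for B cell and macrophage markers and 50% for endothelial markers. It was 15.6% for channels by −log10 p, 16.1% for HOX genes with joined peaks and 0% for neural genes at gene ends. For the genes of other organs, with 2 members, it was 0% by −log10 p, with joined peaks, within 1 kb and by nearest gene. How far read depth bears on the gained and lost genes was not tested.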

Other observations

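Families of immune genes, grouped by their symbol after the values were seen, went in both directions and are given as values only. The GIMAP genes, a cluster of GTPases on chromosome 18 used in lymphocytes, had 7 members with a peak. Of these 6 ranked higher in GD15M_CM, 3 by at least 20 points, against 3.38% of all genes, with a median difference of 7.50 points. GIMAP2 was gained at 59.0, and GIMAP4 was at 79.4 against 57.3, from a peak that GIMAP7 shares. GIMAP6 was at 66.6 with 4092 bp against 59.1 with 2684 bp, and GIMAP8 was the member on the other side, 56.5 against 67.8.

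Of 26 interleukin receptor genes with a peak, 16 ranked higher in GD15M_CM, and the median difference was 2.82 points. By 20 points 3 were higher and 2 lower, against 3.38% and 8.99% of all genes. IL21R, a receptor of T, B and NK cells, was gained at 40.6. IL6R, the interleukin 6 receptor, was at 94.7 with 7771 bp against 72.0 with 5104 bp. The common chain gene IL2RG was at 86.6 against 76.0. On the other side, IL22RA1, an epithelial receptor of interleukin 22, was lost from 56.4, IL17REL was at 17.3 against 67.8, and IL4R was at 71.2 against 85.6. Of 12 genes of the TNF receptor superfamily none was higher and 3 were lower by 20 points, against 8.99% of all genes, with a median of −7.92 points. TNFRSF13C, a survival receptor of B cells, was at 20.5 against 60.6, and TNFRSF8 was lost from 52.1.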
